A study of Bos taurus with 18 samples.

Results

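ACTA2, TAGLN, MYH11, CNN1, DES, CALD1 and MYL9 encode proteins of the smooth muscle contractile apparatus, and they were followed here across the wall and the lining of the bovine preovulatory follicle. The genes were matched by symbol to the platform's probe annotation. Of the 7 genes, 6 have a probe set, each exactly 1, among 24016 probe sets and 9155 genes with 1 symbol. The probe annotation used here names no probe set for MYL9, the regulatory light chain of myosin, so it was not analysed. All comparisons below concern the other 6 genes.

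Each of 6 cows gave its single dominant follicle, and 3 cell preparations of each follicle were put on separate Affymetrix 3′ expression arrays. The preparations were theca, the granulosa attached to the follicle wall (membrane granulosa) and the granulosa aspirated from the antrum (antral granulosa). Cows D, F and G gave follicles before the LH surge. Cows A, B and C gave theirs 22 h after GnRH, the hypothalamic hormone used to set off the surge. There were thus 18 arrays in 6 groups of 3, with different cows before and after LH and the same cows across preparations. No breed, age or genotype of the cows is given in the labels used here, and neither is a measure of how pure each preparation was.

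Smooth muscle contracts when calcium activates the kinase MYLK, which phosphorylates the myosin light chain so that myosin pulls on actin filaments. Calponin and caldesmon restrain that interaction on the thin filament, and desmin filaments tie the contractile units together. In the ovary, contractile cells lie in the theca externa around the follicle and in the walls of vessels and the stroma. Granulosa cells lie inside the basement membrane, without vessels until ovulation. ACTA2, TAGLN and CALD1 are also made by myofibroblasts and other stromal cells, while MYH11 is the member most tied to mature smooth muscle.

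Levels are deposited log2 signals, on which a step of 1 is a 2-fold change. A probe set's own brightness differs from gene to gene, so levels are compared between samples of one gene and not between genes. The files hold no detection calls, so a signal of 4.62, which the mean over all arrays does not reach for the 8005 dimmest probe sets, serves as a lower limit. Where every array of a group was below it, only a bound on the difference can be had, and "at least" stands before the distance of the brighter group's mean from 4.62. An adjusted p beside a bound is that of the fitted difference, which is larger and uses the values below the limit. The bound itself was not tested. Differences are given ± standard error with 3 cows per group. The fit pools the spread over all 18 arrays, so a gene's LH effect has the same standard error in each preparation. Adjusted p values come from limma, corrected by Benjamini-Hochberg over the 24016 probe sets, and a gene is called at 0.05. Arrays within a group correlated at 0.97 to 0.99, and no pair held identical values. The granulosa arrays of cow C stood apart from those of cows A and B for ACTA2, TAGLN and CALD1 by more than 1 on the log2 scale, and the member results that rest on that cow after LH are therefore given without it as well. Some defining markers of one preparation were also read on another. Before LH the aromatase CYP19A1, made by granulosa, read 8.21 to 11.8 on theca arrays. Its mean before LH lay 5.67 above the limit in theca and 8.10 above it in antral granulosa. The theca hormone INSL3 read 10.9 to 14.04 on membrane granulosa arrays before LH. Of the other granulosa markers, FSHR was below the limit on 1 of 3 theca arrays before LH and 2 of 3 after it. FOXL2 was below it on every theca array, but its membrane granulosa mean before LH was only 0.08 above the limit. Carry-over between preparations was not tested.

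ACTA2, the actin of the smooth muscle thin filament, was highest in theca, intermediate in membrane granulosa and lowest in antral granulosa. In theca it read 12.7, 13.0 and 13.4 in cows D, F and G before LH, and 12.7, 12.8 and 12.1 in cows A, B and C after it. On membrane granulosa arrays it read 8.71, 7.67 and 9.69 before LH and 7.76, 8.23 and 10.2 after it. On antral granulosa arrays it was below the limit in all 3 cows before LH (4.07, 4.15 and 4.41) and above it after LH (5.81, 5.15 and 7.27). The theca arrays did not overlap with any granulosa array, and the antral arrays were all below the membrane arrays at both times, which held for 7.79% of all probe sets before LH and 7.92% after it.

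MYH11, the smooth muscle myosin heavy chain, had the same order but stayed well above the limit on the antral arrays. In theca it read 11.4, 11.9 and 12.5 before LH and 11.3, 10.9 and 9.76 after it. Membrane granulosa gave 8.14, 8.59 and 9.13 before LH and 7.44, 7.78 and 7.74 after it. Antral granulosa gave 7.33, 7.50 and 7.40 before LH and 6.93, 6.82 and 6.87 after it. In each of the 3 preparations the cows after LH all lay below the cows before it. A lower order without overlap of the groups was found for 10.4% of all probe sets in theca, 19.7% in membrane granulosa and 19.4% in antral granulosa.

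TAGLN (transgelin), CNN1 (calponin) and CALD1 (caldesmon) encode actin-binding proteins of the thin filament. TAGLN read 10.4, 10.7 and 11.3 in theca before LH and 10.3, 10.5 and 10.1 after it. On membrane granulosa arrays it read 6.77, 5.97 and 6.91 before LH and 6.80, 6.63 and 8.80 after it, the last value being that of cow C. Antral granulosa gave 4.23, 4.29 and 4.02 before LH, all below the limit, and 5.50, 4.80 and 6.75 after it. TAGLN therefore followed ACTA2 closely in its order over groups and in the cow that stood out.

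CNN1 separated theca from granulosa but not the granulosa preparations from each other. Its theca values were 7.60, 8.28 and 8.56 before LH and 8.26, 8.53 and 7.55 after it. On the 12 granulosa arrays it lay between 5.31 and 6.95, and the highest was again the membrane array of cow C. The membrane group means were 5.79 ± 0.26 (SD, n = 3) before LH and 6.24 ± 0.61 after it, and the antral means 5.59 ± 0.42 and 6.16 ± 0.18. These neighbours in the order overlapped.

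CALD1 was close to the limit in granulosa before LH. In theca it read 7.08, 6.69 and 7.26 before LH and 7.15, 7.37 and 7.35 after it, the narrowest spread after LH of any member in theca (SD 0.12). Before LH the 6 granulosa arrays read 3.96 to 4.41, all below the limit. After LH the membrane arrays gave 5.12, 4.53 and 6.74 and the antral arrays 4.45, 4.55 and 5.58 in cows A, B and C. Only cow C was above the limit in both granulosa preparations. CALD1 has a long smooth muscle form and a short form of other cells, and 1 probe set cannot separate them here.

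DES encodes desmin, the intermediate filament protein of muscle. It read 6.48, 6.76 and 7.38 in theca before LH and 7.03, 7.23 and 6.85 after it. The 12 granulosa arrays lay between 4.81 and 5.58, above the limit, with overlapping membrane and antral groups before LH. After LH the antral arrays (5.54, 5.23 and 5.26) lay above the membrane arrays (4.90, 4.89 and 5.04), the opposite of the order of ACTA2. Antral arrays were all above membrane arrays for 15% of all probe sets at this time.

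**Figure D1:**
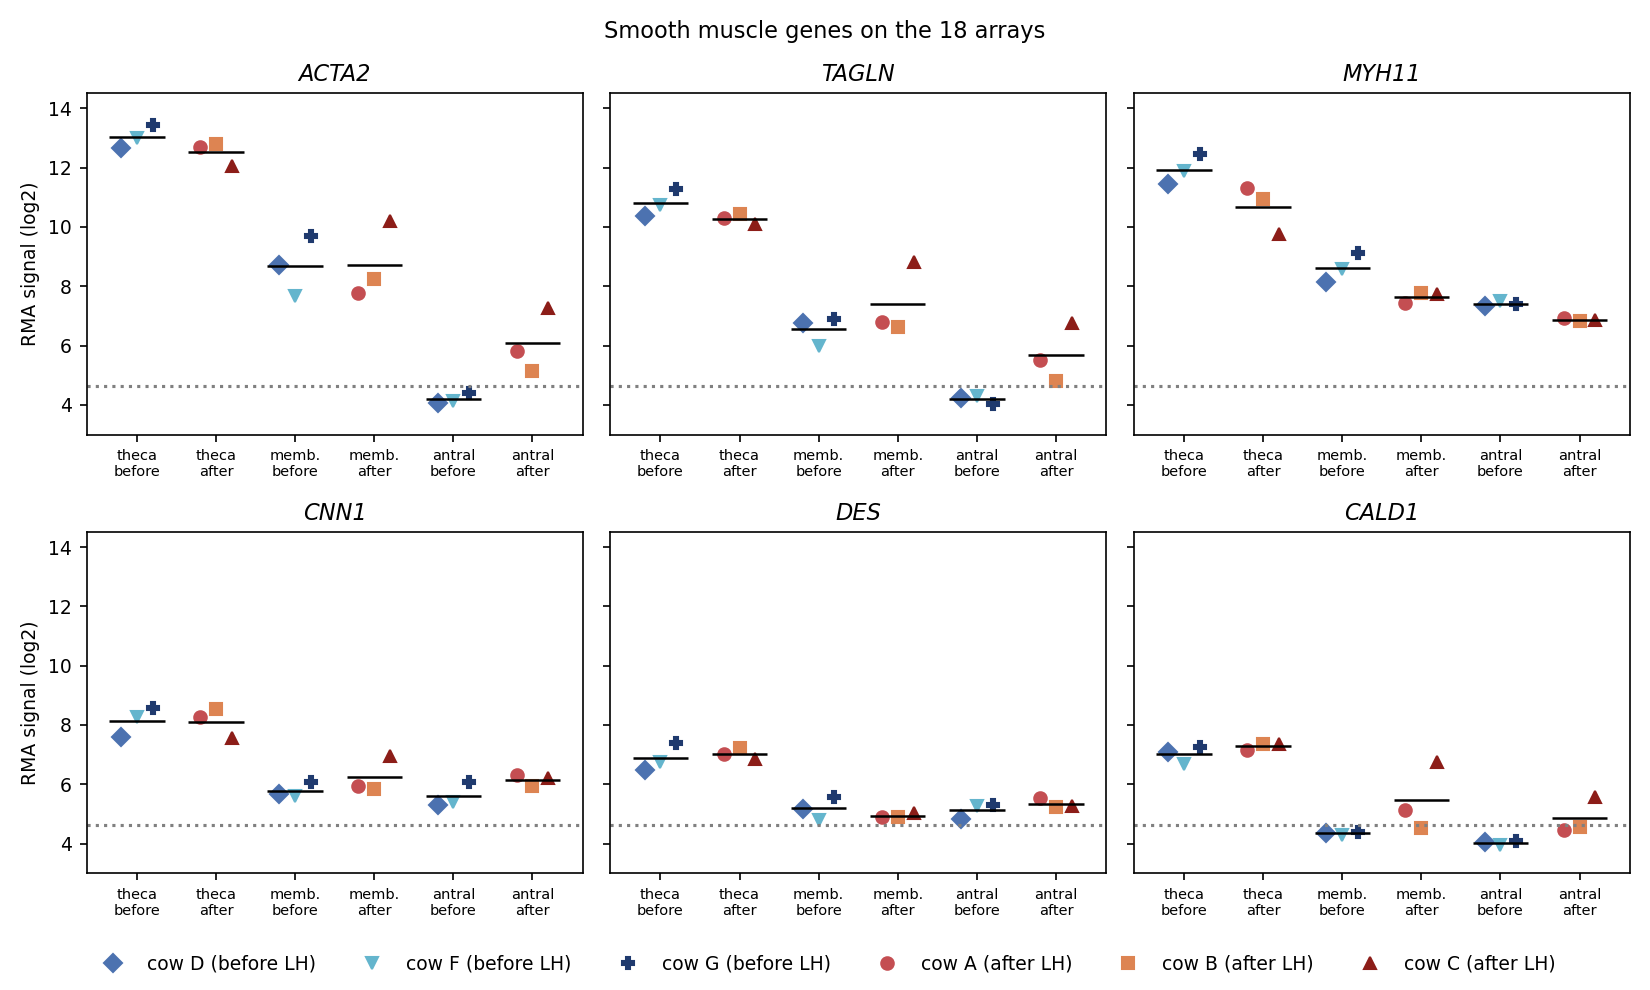
Deposited log2 signal of the 6 genes on the 18 arrays, by preparation and time ("memb." is membrane granulosa), with 1 symbol per cow, the group mean as a bar and the limit of 4.62 dotted. The theca arrays lie above all granulosa arrays for 5 of the genes, while for CALD1 the membrane array of cow C (6.74) reaches the lowest theca array (6.69).

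Which preparation carries smooth muscle transcripts is the question of the contrasts between theca and granulosa of the same follicles. All 6 genes were higher in theca than in membrane granulosa and than in antral granulosa, before and after LH, and groups did not overlap within any of these 4 contrasts. Over all probe sets, theca was higher without overlap for 17.9% and 15.6% against membrane granulosa, before and after LH, and for 17.1% and 15.9% against antral granulosa. Against membrane granulosa before LH, ACTA2 was higher by 4.34 ± 0.51, or 20.3-fold (adjusted p = 4.62e-05), and TAGLN by 4.24 ± 0.41 (adjusted p = 1.4e-05). MYH11 was higher by 3.31 ± 0.28 (adjusted p = 7.07e-06), CNN1 by 2.36 ± 0.30 (adjusted p = 7.57e-05) and DES by 1.68 ± 0.17 (adjusted p = 1.77e-05). CALD1 was higher by at least 2.39 (adjusted p = 2.65e-05). Of all probe sets, 15.4% were called higher in theca in this contrast. The median difference of the 6 genes was 2.98, and that of all probe sets was -0.07. In bulk preparations, fewer cells of a type and less RNA per cell cannot be told apart.

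After LH the distance from membrane granulosa was 3.79 ± 0.51 for ACTA2 (adjusted p = 0.000302), 2.87 ± 0.41 for TAGLN (adjusted p = 0.000439) and 3.01 ± 0.28 for MYH11 (adjusted p = 6.98e-05). It was 1.87 ± 0.30 for CNN1 (adjusted p = 0.000801), 2.10 ± 0.17 for DES (adjusted p = 3.87e-05) and 1.83 ± 0.29 for CALD1 (adjusted p = 0.00078), against 11.4% of all probe sets called higher. Within cows, ACTA2 was higher in theca by 4.93 in cow A, 4.58 in cow B and 1.85 in cow C. For TAGLN these distances were 3.50, 3.82 and 1.30, and for CALD1 2.03, 2.84 and 0.61. Cow C thus had the smallest distance of the 3 cows for these genes, as it had for CNN1 (0.61), DES (1.81) and MYH11 (2.02). Without cow C the differences were larger, 4.76 for ACTA2, 3.66 for TAGLN and 2.44 for CALD1.

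Against antral granulosa the distances were wider for ACTA2 and TAGLN. Before LH, ACTA2 was higher in theca by at least 8.41 (adjusted p = 2.96e-07) and TAGLN by at least 6.17 (adjusted p = 4.57e-07). MYH11 was higher by 4.52 ± 0.28 (adjusted p = 4.79e-07). CNN1 was higher by 2.55 ± 0.30, DES by 1.74 ± 0.17 and CALD1 by at least 2.39. After LH the differences were 6.44 ± 0.51 for ACTA2, 4.60 ± 0.41 for TAGLN and 3.79 ± 0.28 for MYH11. They were 1.96 ± 0.30 for CNN1, 1.70 ± 0.17 for DES and 2.43 ± 0.29 for CALD1, the largest adjusted p after LH being that of CNN1 (0.000328). Without cow C these differences were 7.27 for ACTA2, 5.23 for TAGLN, 4.24 for MYH11, 2.26 for CNN1, 1.75 for DES and at least 2.64 for CALD1, all called. Of all probe sets, 14.9% were called higher in theca before LH and 15.7% after it. The 24 results of the 6 genes in these 4 contrasts gave 312 values under another setting or without 1 cow, and all 312 were called. Not all of these are separate checks, since the 2-fold requirement uses the main fit again. Leaving out a cow of the other time also changes only the pooled spread and not the difference.

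Endothelial and fibroblast markers were mostly higher in theca as well, while pericyte markers went both ways before LH. Shares of all probe sets called in theca against membrane granulosa were 15.4% higher and 18.9% lower before LH, and 11.4% and 14.4% after it. Against antral granulosa these shares were 14.9% and 22.1% before LH, and 15.7% and 20.5% after it. Of 14 endothelial markers, 13 were higher in theca than in membrane granulosa before LH and 11 after it, and their mean level was 7.07 to 7.62 on theca arrays, 4.37 to 5.77 on membrane arrays and 4.37 to 4.78 on antral arrays. Of 11 fibroblast markers, 9 were higher before LH and 8 after it (5 without cow B), with mean levels of 10.3 to 11.3 in theca, 7.44 to 10.1 in membrane granulosa and 5.51 to 8.05 in antral granulosa. Of 7 pericyte markers, 2 were higher and 2 lower than in membrane granulosa before LH, and 4 were higher and none lower by limma after it (5 and 0 at an unadjusted p under 0.05). The 2 lower became 1 without cow F or cow G, and the 4 higher became 0 without cow A or cow B. Against antral granulosa 2 pericyte markers were higher (1 without cow G) and 2 lower (1 without cow B or cow F) before LH, and 3 were higher and 0 lower by limma after it (3 and 0 at an unadjusted p under 0.05). The pericyte regulator RGS5 read 9.39 to 10.6 on theca arrays, 3.66 to 8.28 on membrane arrays and below the limit on the 6 antral arrays, and the receptor PDGFRB was at or near the limit everywhere (3.74 to 4.74). How much of each member's signal came from vessel walls, the theca externa or other stroma was not tested.

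**Figure D2:**
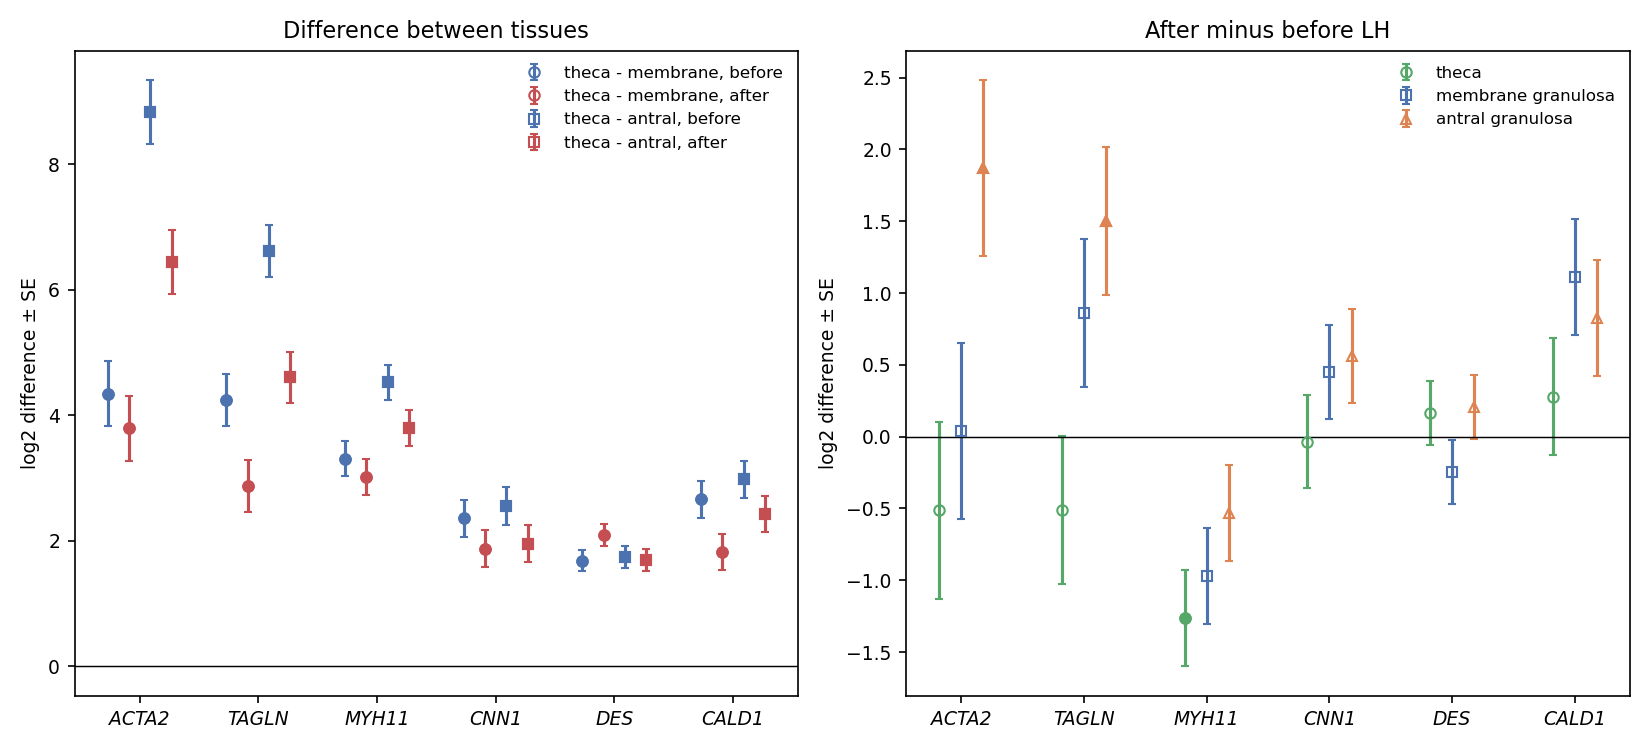
Fitted log2 differences ± standard error of the 6 genes, between theca and each granulosa preparation of the same cows (left) and after minus before LH in each preparation (right). Filled symbols were called at an adjusted p of 0.05 and open ones were not; for ACTA2, TAGLN and CALD1 differences from a group below the limit are drawn as fitted. All differences on the left are filled, and 3 are filled on the right.

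The granulosa preparations differed in ACTA2 and TAGLN. Before LH, ACTA2 was lower in antral than in membrane granulosa by at least 4.07 (adjusted p = 0.00134), and TAGLN by at least 1.92 (adjusted p = 0.0186). In this contrast 1.09% of all probe sets were called lower. MYH11 differed by -1.21 ± 0.28 (adjusted p = 0.054) and was lower in 3 of 3 cows. MYH11 was called in only 4 of 13 refits, over which the adjusted p reached 0.258. Those 4 were with each array centred on its median (adjusted p = 0.0499), without the dimmest probe sets (0.0462), with a trended and robust eBayes (0.0496) and without cow C (0.0176). Cow C has no array in this contrast, so leaving it out kept the difference at -1.21 and changed only the pooled spread behind the p values. CNN1 (-0.20 ± 0.30) and DES (-0.06 ± 0.17) were not called, and CALD1 was below the limit in both groups. The TAGLN call ended without cow D (adjusted p = 0.13) or cow G (0.112).

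After LH, both genes were again lower in antral granulosa, ACTA2 with a difference of -2.65 ± 0.51 (adjusted p = 0.0277) and TAGLN of -1.73 ± 0.41 (adjusted p = 0.0453), against 1.57% of all probe sets called lower. Both were lower in 3 of 3 cows. MYH11 (-0.78 ± 0.28, adjusted p = 0.135, and 0.0253 with only the compared arrays), CNN1 (-0.08 ± 0.30), DES (0.40 ± 0.17) and CALD1 (-0.60 ± 0.29) were not called. The ACTA2 call ended without cow A (adjusted p = 0.186) or cow B (0.162), and TAGLN was called only without cow C (0.0483) among the refits that leave out 1 cow. Without cow C the difference was -2.51 for ACTA2 (adjusted p = 0.0293) and -1.57 for TAGLN. Of 11 fibroblast markers, 5 were lower in antral granulosa at each time, falling to 3 without cow D before LH, and to 1 without cow A and 0 without cow B after it, while no endothelial marker of 14 was called by limma at either time (2 lower before and 6 lower after LH at an unadjusted p under 0.05), and 1 was after LH without cow F. Before LH the fibroblast proteoglycan DCN read 8.82 to 10.04 on membrane arrays and 6.09 to 6.88 on antral arrays. Their part in the difference of ACTA2 and TAGLN was not tested.

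In theca, MYH11 was the 1 member of 6 called for an LH effect. It fell by 1.26 ± 0.33 (2.40-fold, adjusted p = 0.047), and the 3 cows after LH lay below the 3 cows before it. In this contrast 3.92% of all probe sets were called and 2.12% were called lower. ACTA2 (-0.51 ± 0.61, adjusted p = 0.791) and TAGLN (-0.51 ± 0.51, 0.736) were not called, and their groups overlapped. CNN1 (-0.03 ± 0.33), DES (0.17 ± 0.22) and CALD1 (0.28 ± 0.41) were not called either.

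The MYH11 call in theca depended on single cows and on the spread pooled over all 18 arrays. With only the theca arrays the adjusted p by limma was 0.237. The SD of MYH11 in theca was 0.52 before LH and 0.81 after it. It was 0.50 and 0.19 in membrane granulosa, and 0.086 and 0.055 in antral granulosa. Without cow C the difference in theca was -0.81 (adjusted p = 0.177), and the adjusted p was 0.0543 without cow D, 0.152 without cow F, 0.21 without cow G and 0.0849 without cow B. Without cow A it was -1.58 (adjusted p = 0.0485). Beside it, none of the 7 pericyte markers was called in theca by limma (1 at an unadjusted p under 0.05), 1 of 14 endothelial markers was higher (0 without cow A, C, D or G), and of 11 fibroblast markers 1 was higher (2 without cow F) and 1 lower (0 without cow C, D or G). Of 7 markers of theca hormone cells 3 were lower and none higher by limma, also at an unadjusted p under 0.05, with a median of -1.33. Of 12 granulosa markers 3 were lower and 1 higher, with a median of -0.52. The part of these cells in the fall of MYH11 was not tested. The difference between the 3′ and 5′ control probe sets of beta-actin, a sign of RNA integrity, was 1.51 to 1.75 on theca arrays before LH and 1.14 to 1.91 after it.

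In membrane granulosa none of the 6 genes was called after LH at an adjusted p of 0.05 by limma, while 21% of all probe sets were. At an unadjusted p under 0.05 there were 2, MYH11 and CALD1. MYH11 differed by -0.97 ± 0.33 (adjusted p = 0.052), and without cow C, whose membrane array read 7.74, it was -1.01 (adjusted p = 0.025). CALD1 differed by at least 0.84 (adjusted p = 0.0654), its groups not overlapping, as for 14.9% of all probe sets that were higher, and TAGLN by 0.86 ± 0.51 (adjusted p = 0.28). Without cow C CALD1 differed by at least 0.20 and TAGLN by 0.17. ACTA2 was 0.04 ± 0.61, and -0.69 without cow C. CNN1 (0.45 ± 0.33) and DES (-0.24 ± 0.22) were not called.

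In antral granulosa ACTA2 and TAGLN rose after LH, from below the limit. ACTA2 rose by at least 1.45 (2.74-fold) and TAGLN by at least 1.06 (2.08-fold). The fitted rises, which use the values below the limit, were 1.87 ± 0.61 for ACTA2 (adjusted p = 0.0389) and 1.50 ± 0.51 for TAGLN (adjusted p = 0.0478). The smaller bounds were not tested. Both were higher in 3 of 3 cows after LH than in any cow before it, and 10.3% of all probe sets were called higher and 17.2% were higher without overlap. CALD1, whose groups did not overlap, differed by at least 0.24 (adjusted p = 0.174). MYH11 (-0.53 ± 0.33, adjusted p = 0.305), CNN1 (0.56 ± 0.33) and DES (0.21 ± 0.22) were not called. The MYH11 groups did not overlap, with the cows after LH lower, as for 19.4% of all probe sets. MYH11 was called in 1 of 14 refits, that with only the antral arrays (adjusted p = 0.0208).

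Without cow C the rises in antral granulosa came down to at least 0.86 for ACTA2 (adjusted p = 0.051) and at least 0.52 for TAGLN (adjusted p = 0.0333), the fitted values going from 1.87 to 1.27 and from 1.50 to 0.97. CALD1 was then below the limit on all remaining arrays at both times. The ACTA2 call also ended without cow D (adjusted p = 0.133), F (0.0958), G (0.0689) or A (0.0732), and that of TAGLN without cow D (0.124), F (0.112), G (0.145) or A (0.106). Fibroblast markers rose on the same arrays: 5 of 11 were called higher (3 without cow A or cow D), with mean levels of 5.51 to 5.77 before LH and 6.64 to 8.05 after it. Endothelial markers had mean levels of 4.37 to 4.39 and 4.71 to 4.78, with 1 of 14 called (2 without cow C), and RGS5 was below the limit at both times. The 3′ minus 5′ difference of beta-actin was 1.15 to 2.26 (median 2.21) on antral arrays before LH and 1.59 to 1.82 after it. That of the GAPDH control was 0.12 to 0.47 before LH and 0.46 to 0.87 after it. The part of fibroblast RNA or of RNA integrity in the rise of ACTA2 and TAGLN was not tested.

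Whether LH acted differently on theca and granulosa was tested as the difference of the LH effects within the model. Against membrane granulosa no member was called by limma, and at an unadjusted p under 0.05 there was 1, TAGLN (-1.37 ± 0.58, adjusted p = 0.186). Of all probe sets 9.13% were called. Against antral granulosa TAGLN differed by -2.01 ± 0.58 (adjusted p = 0.0437), with 5.6% of all probe sets called lower. ACTA2 differed by -2.38 ± 0.72 (adjusted p = 0.0543) and the other 4 genes by -0.73 to -0.04. Before LH the antral group was below the limit for ACTA2, TAGLN and CALD1, and the membrane group for CALD1, so the values of these genes are as fitted. The TAGLN call ended without cow C (-1.38, adjusted p = 0.0606), D (0.065), F (0.0878), G (0.183) or A (0.1). The LH effects in the 3 preparations share no arrays but share cows.

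The members did not vary together in cow C. On its membrane granulosa array ACTA2 was 2.20 above the mean of cows A and B, TAGLN 2.09, CALD1 1.91 and CNN1 1.06, while DES (0.15) and MYH11 (0.13) were close to it. On its antral array the distances were 1.79 for ACTA2, 1.60 for TAGLN and 1.08 for CALD1, against 0.08 for CNN1, -0.01 for MYH11 and -0.12 for DES. In theca of the same follicle MYH11 was 1.36 below the other cows (-1.36), CNN1 was at -0.84 and ACTA2 at -0.70. The median over all probe sets was -0.03 in each granulosa preparation and 0.02 in theca.

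Fibroblast markers stood out on the same granulosa arrays of cow C. Their median distance was 1.38 in membrane granulosa, with 10 of 11 above 0, and 0.97 in antral granulosa, with 9 of 11 above 0. In theca it was -0.18. Endothelial markers were above the other cows in membrane granulosa (median 0.73, 13 of 14 above 0) and near them in antral granulosa (0.06, 7 of 14). Pericyte markers gave 0.22 and -0.16. Leukocyte markers were above the other cows in membrane granulosa (median 0.44, 11 of 13 above 0), near them in antral granulosa (0.06, 7 of 13) and below them in theca (-0.80, 3 of 13). The part of these cells in the high ACTA2, TAGLN and CALD1 of cow C was not tested.

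**Figure D3:**
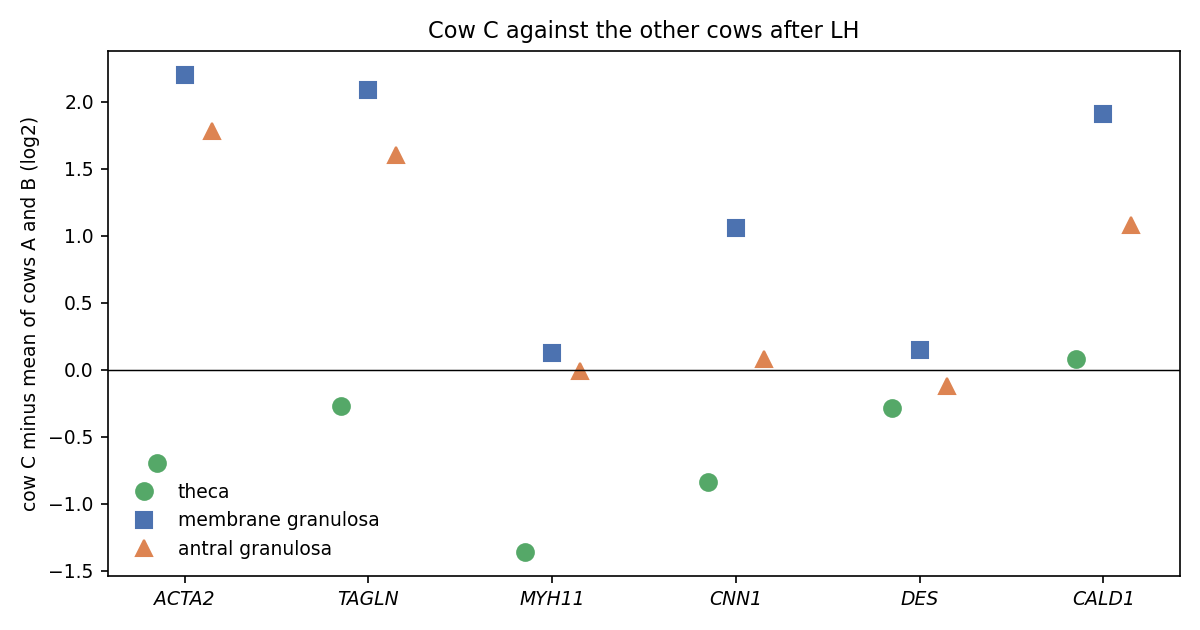
Log2 signal of cow C minus the mean of cows A and B after LH for the 6 genes, with 1 point per preparation. In both granulosa preparations ACTA2, TAGLN and CALD1 lie between 1.08 and 2.20 above the other cows, while MYH11 and DES lie within 0.15 of them.

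Across the 18 arrays all 15 pairs of members correlated, with Pearson's r from 0.78 (MYH11 and CALD1) to 0.99 (ACTA2 and TAGLN) and a median of 0.89. These values carry the distance between theca and granulosa, which all members share. After the group means were removed, the correlations spread from 0.02 to 0.93. ACTA2 with TAGLN (0.93), TAGLN with CALD1 (0.86) and ACTA2 with CALD1 (0.75) were the closest pairs. MYH11 was less close to ACTA2 (0.41) and TAGLN (0.26), and at 0.02 to CALD1. MYH11, CNN1 and DES correlated with each other at 0.63 to 0.71. CNN1 was about as close to ACTA2 (0.71) and TAGLN (0.64), so the members did not fall into 2 separate sets.

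Within theca and within granulosa the correlations were taken without removing group means. They therefore also carry the differences between before and after LH and, in granulosa, between membrane and antral arrays. On the 6 theca arrays ACTA2 correlated with MYH11 at 0.95 and with TAGLN at 0.94, while CALD1 was at -0.46 with MYH11 and -0.27 with ACTA2. On the 12 granulosa arrays ACTA2 and TAGLN (0.95), CNN1 and CALD1 (0.81), and TAGLN and CALD1 (0.80) were closest, and DES ranged from -0.11 to 0.33 with the others. The arrays share cows, and the granulosa values include the arrays of cow C and arrays below the limit, so these are descriptions without a test.

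**Figure D4:**
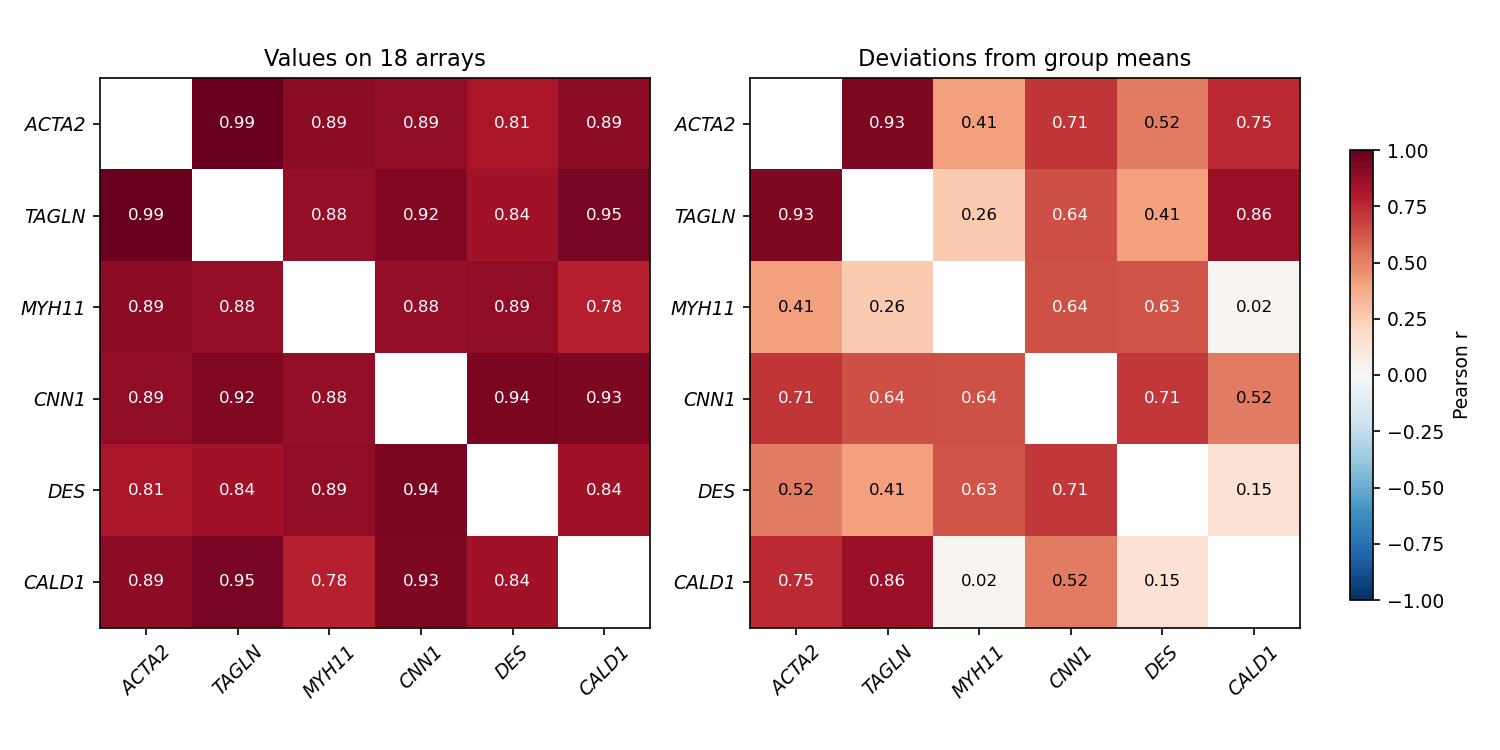
Pearson correlation between members over the 18 arrays (left) and of the deviations from the 6 group means (right), from blue at -1 over white at 0 to red at 1. All 15 pairs lie between 0.78 and 0.99 on the left, and between 0.02 (MYH11 and CALD1) and 0.93 (ACTA2 and TAGLN) on the right.

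Among 9149 other genes, those most like the mean of the standardised members over the 18 arrays were LOXL1 (r = 0.99), an elastin cross-linking enzyme, PECAM1 (0.98), an endothelial adhesion molecule, MGAT4A, EFEMP2, EVA1B, SH3BGR, CYYR1, SOX18, EMCN and CD93 (0.97 to 0.98). Of these 10, PECAM1, SOX18 and EMCN are among the endothelial markers. LOXL1 had group means of 8.86 and 8.72 in theca, 4.91 and 5.28 in membrane granulosa and 3.60 and 4.02 in antral granulosa, before and after LH. PECAM1 had 9.44 and 9.42 in theca, 5.80 and 5.81 in membrane granulosa and 4.92 and 5.06 in antral granulosa. Over the 6 theca arrays alone the nearest genes were TJAP1 (0.99), AMT (0.99), MLLT10, CDK3 and KANSL2 (0.98 each), none of which was among the 10 above. These 5 are the highest of 9149 values over only 6 arrays, from before and after LH, and chance was not tested. TJAP1 was brighter in granulosa (8.40 and 8.21 before LH) than in theca (7.22).

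Other proteins of the contractile system, a list of 30 partners of which 25 are measured, also separated theca from granulosa, but less evenly. Before LH 18 were higher and 1 lower in theca than in membrane granulosa, with a median of 1.15, against 15.4% of all probe sets called higher and 18.9% lower. After LH 9 were higher and 4 lower, with a median of 0.35, against 11.4% higher and 14.4% lower. The kinase MYLK was higher in theca by 3.37 ± 0.42 before LH (adjusted p = 6.27e-05) and by 2.86 ± 0.42 after it (adjusted p = 0.000471). The cross-linker ACTN1 was higher by 4.06 ± 0.53 (adjusted p = 9.96e-05) and 3.05 ± 0.53 (adjusted p = 0.00141). TPM2, a tropomyosin, was higher by 2.95 ± 0.34 before LH (adjusted p = 3.76e-05), and SMTN, smoothelin, by 2.14 ± 0.33 after it (adjusted p = 0.000663), with 2 of 3 membrane arrays below the limit. The 1 lower before LH became 0 without any 1 of the 6 cows. After LH the 9 higher became 5 without cow B, and the 4 lower became 0 without cow A or cow B, 1 without cow C and 2 without cow D, F or G.

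Against antral granulosa 17 partners were higher and 1 lower before LH, and 11 were higher and 3 lower after it. Over all probe sets 22.1% were called lower before LH and 20.5% after it, with the shares higher given above. The 1 lower before LH became 0 without cow A, B, D or F, and the 3 lower after LH became 0 without cow A or cow B and 1 without cow C. MYLK was higher in theca by 5.65 ± 0.42 (adjusted p = 1.18e-06) before LH and by 4.22 ± 0.42 (adjusted p = 1.74e-05) after it. ACTN1 differed by 6.35 ± 0.53 before LH (adjusted p = 3.05e-06), with 2 of 3 antral arrays below the limit. MYLK was also lower in antral than in membrane granulosa before LH, by 2.28 ± 0.42 (-2.28, adjusted p = 0.0211), in the order of ACTA2 and TAGLN, though not called without cow D or cow G.

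Some of the 25 partners changed in granulosa after LH. In membrane granulosa 8 rose and 1 fell (0 without cow A), with 10% of all probe sets called higher and 10.9% lower, and in antral granulosa 11 rose and 2 fell, with 10.3% higher and 12.2% lower. The median was 0.42 and 0.63, against -0.05 and -0.01 over all probe sets. In theca 1 rose and none fell by limma (3 and 2 at an unadjusted p under 0.05), with 1.79% called higher. VCL, vinculin of the actin anchorage sites, rose by 2.15 ± 0.22 in membrane granulosa (adjusted p = 4.36e-06) and by 2.79 ± 0.22 in antral granulosa (adjusted p = 2.6e-07). TPM2 rose by 2.04 ± 0.40 in membrane granulosa (adjusted p = 0.00149), the LIM protein CSRP2 by 2.07 ± 0.40 (adjusted p = 0.00152) and TGFB1I1 by 1.75 ± 0.35 (adjusted p = 0.00174). FLNA, a filamin, rose by 1.57 ± 0.23 in antral granulosa (adjusted p = 0.000126). TPM1 (-1.14 ± 0.16, adjusted p = 8.85e-05) and VIM (-0.81 ± 0.11, adjusted p = 6.4e-05) fell there.

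Of these partners, VCL, TPM2, CSRP2 and TGFB1I1 in membrane granulosa and VCL, FLNA, TPM1 and VIM in antral granulosa were called in 8 of 8 refits with another scaling or without 1 cow. The count of rises in antral granulosa was 9 without cow C, 7 without cow A and 6 without cow G. The single rise in theca, that of the cytoplasmic actin ACTG1 (0.42 ± 0.10, adjusted p = 0.0253), lost its call when any 1 of the 6 cows was left out. Unlike ACTA2 and TAGLN in antral granulosa, VCL and FLNA rose from levels well above the limit (8.91 and 8.70).

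For most of the 25 partners no difference in LH effect between preparations was called. Against membrane granulosa 5 partners had a lower LH effect in theca and none a higher one by limma, also at an unadjusted p under 0.05, with 4.57% of all probe sets called lower. Among them were VCL (-1.97 ± 0.32, adjusted p = 0.00245), CSRP2 (-2.25 ± 0.39, adjusted p = 0.00347), TPM2 (-2.47 ± 0.48, adjusted p = 0.00626) and FLNA (-1.11 ± 0.25, adjusted p = 0.0144). The count was 3 without cow A, without cow F or without cow C, and FLNA was not called without cow A, B, C or F. Against antral granulosa 6 were lower and 2 higher, with 5.6% of all probe sets called lower and 5.64% higher, led by VCL (-2.60 ± 0.32, adjusted p = 0.000253) and FLNA (-1.62 ± 0.25, adjusted p = 0.000999). The count was 3 lower without cow A, without cow G or without cow C, and the 2 higher became 0 without cow A and 1 without cow B, D or F.

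Of 22 enzymes and channels that switch contraction on or off, 14 are measured. After LH 4 rose and 1 fell in each granulosa preparation, and 1 fell in theca. Of all probe sets 10% were called higher and 10.9% lower in membrane granulosa, 10.3% and 12.2% in antral granulosa, and 2.12% lower in theca. The single fall became 0 without cow A in membrane granulosa, 2 without cow B or cow F in antral granulosa and 2 without cow B in theca. ITPR1, the receptor that releases stored calcium, rose by 2.61 ± 0.26 in membrane granulosa (adjusted p = 3.47e-06) and by 3.02 ± 0.26 in antral granulosa (adjusted p = 5.94e-07). KCNMA1, the pore of the calcium-activated potassium channel that relaxes smooth muscle, rose from below the limit by at least 1.94 in membrane (adjusted p = 0.00178) and 1.83 in antral granulosa (adjusted p = 0.0016). GUCY1A1, a subunit of the nitric oxide receptor, fell by 1.32 ± 0.32 (-1.32, adjusted p = 0.00693) and by 1.62 ± 0.32 (-1.62, adjusted p = 0.00143). The fall in membrane granulosa was not called without cow A, and 1 of 3 antral arrays after LH was below the limit.

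KCNMB1, the smooth muscle subunit of the same potassium channel, fell in theca, by at least 1.09 (adjusted p = 0.000348), to below the limit in all 3 cows after LH. It was called in 8 of 8 refits, in contrast with MYH11. Before LH KCNMB1 was higher in theca by at least 1.09 than in membrane granulosa (adjusted p = 4.42e-06) and than in antral granulosa (adjusted p = 2.25e-06), where all arrays were below the limit. The LH effect on ITPR1 was lower in theca by 1.92 ± 0.28 (-1.92, adjusted p = 0.00126) than in membrane granulosa and by 2.34 ± 0.28 (-2.34, adjusted p = 0.000215) than in antral granulosa.

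Of 14 receptors for contractile hormones 11 have a probe set. EDNRB, ADRA1A, PTGER3 and HTR2A were below the limit on every array, and OXTR on every theca array. For the LH effect, 10% of all probe sets were called higher and 10.9% lower in membrane granulosa. In antral granulosa these shares were 10.3% and 12.2%, and in theca 1.79% and 2.12%. AGTR1, the angiotensin II receptor, rose in membrane granulosa by 3.14 ± 0.60 (adjusted p = 0.00126), where 1 of the 3 earlier arrays lay below the limit, and in antral granulosa by at least 2.95 (adjusted p = 0.000316). In theca, where AGTR1 had a mean of 7.86 before LH, it was not called. AVPR1A, the vasopressin receptor of vessels, fell in theca to below the limit, by at least 1.57 (adjusted p = 0.0149), and was not called without cow A, B or C. The endothelin receptor EDNRA fell in antral granulosa (-2.13 ± 0.46, adjusted p = 0.00283), with 2 of 3 arrays after LH below the limit. After LH EDNRA was higher in theca than in membrane granulosa by 2.28 ± 0.41 (adjusted p = 0.00165).

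Of 16 transcription factors of smooth muscle only 6 are measured, and MYOCD, the coactivator that directs the smooth muscle programme, is not among them. KLF4, which represses contractile genes in vessel cells, was higher in theca than in membrane granulosa by at least 2.57 before LH (adjusted p = 0.000249) and by 2.42 ± 0.47 after it (adjusted p = 0.00266). MEF2C was higher by 0.89 ± 0.19 (adjusted p = 0.00345) and 1.04 ± 0.19 (adjusted p = 0.00207). GATA6 was lower by 1.66 ± 0.21 (-1.66, adjusted p = 8.31e-05) before LH and by 1.08 ± 0.21 (-1.08, adjusted p = 0.00286) after it. None of the 6 was called in theca after LH by limma, and 1 had an unadjusted p under 0.05. SRF, the factor that binds the promoters of contractile genes, rose by 0.54 ± 0.16 in membrane granulosa (adjusted p = 0.0235), and was not called without cow A, D or F.

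**Figure D5:**
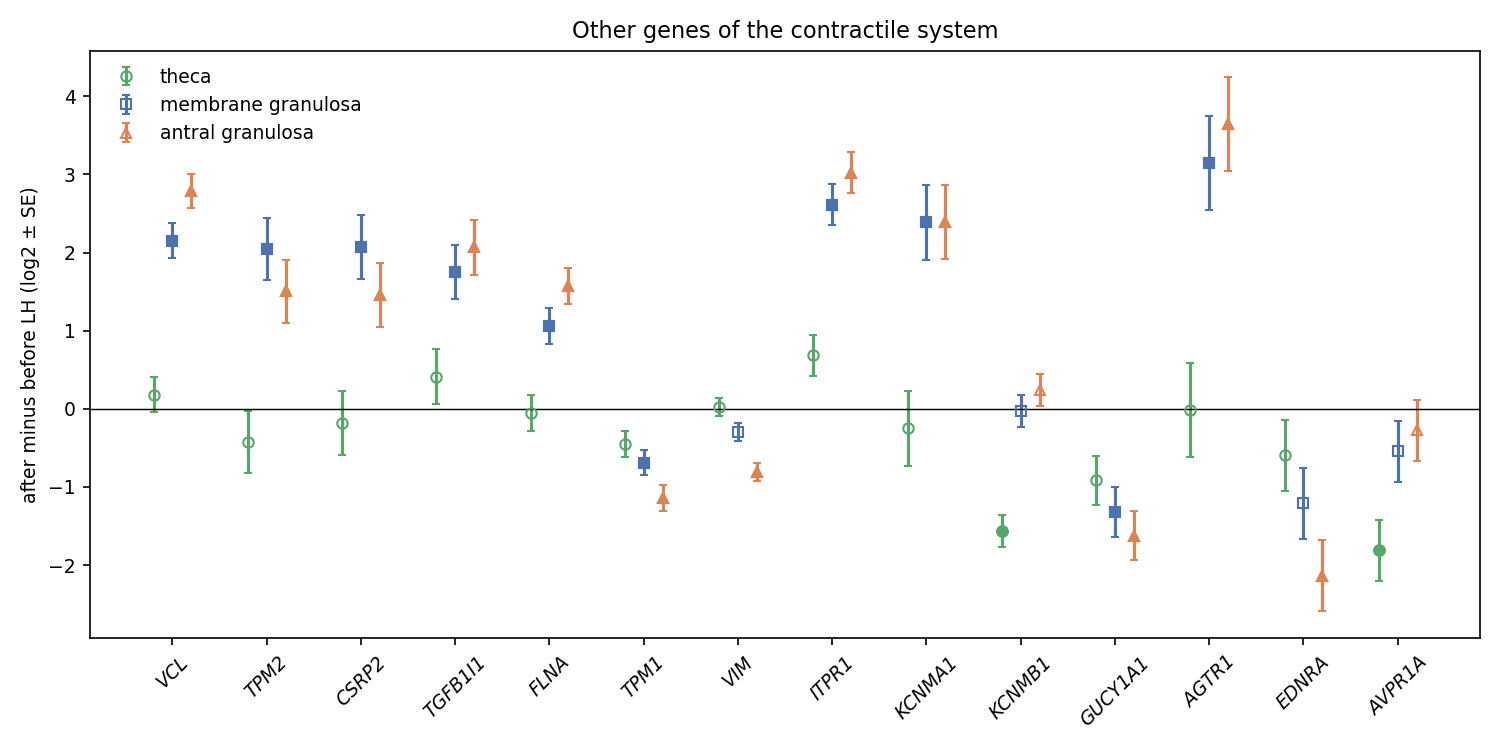
Log2 difference after minus before LH ± standard error for 14 other genes of the contractile system in the 3 preparations, filled where called at an adjusted p of 0.05 and as fitted where a group was below the limit. VCL, FLNA, ITPR1 and AGTR1 are filled and above 0 in both granulosa preparations and open in theca, while KCNMB1 and AVPR1A are filled in theca alone.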

How the data were processed

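RNA of 18 preparations from 6 cows was extracted with Trizol and labelled with a 3′ in vitro transcription kit, per the labels' protocols. The authors made a log2 signal for each probe set with RMA in Partek 6.5, per the submitters' processing notes, and deposited these. Its settings are not given in the sources used here; RMA in its usual form makes the arrays' distributions alike, so a shift shared by most genes would not show. The log base is read from the values, which run from 2.29 to 14.9, with array medians of 5.74 to 5.86.

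Of 24128 probe sets the 112 controls were left out. The platform annotation, which can be old, gives 13292 of the rest 1 symbol, 86 several and 10638 none. Where a gene of a list has several probe sets, that of the highest mean stands for it. Means, SDs and limma 3.58.1 fits in R 4.3.3 were computed from the deposited values. LH effects, between different cows, were fitted with 6 group means and no block. Contrasts between preparations and differences in LH effect were fitted with the cow as a block, since the labels name the cow. As a check of that pairing, deviations from group means correlated at -0.02 to 0.69 within cows, over 0.1 in 17 of 18 pairs. Replicates are separate cows, and 3 per group limit the precision.

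The fits were tested on simulated data, with changes added to randomly drawn probe sets, each with its own spread. A change of 1 (log2) was found in 66% of cases and a change of 2 in 90% for the LH effect in theca. For the difference in LH effect these shares were 28% and 76% for theca against membrane granulosa, and 24% and 84% for theca against antral granulosa. Such shares describe probe sets in general and not the members. The standard error of an LH effect was 0.61 for ACTA2 and 0.51 for TAGLN, and their own recovery was not simulated. False calls for the LH effect were 16 of 150 calls in antral granulosa, 12 of 137 in membrane granulosa and 5 of 137 in theca. For the difference in LH effect they were 4 of 105 against membrane and 2 of 105 against antral granulosa. Refits changed the normalization (quantile, median centring), left out the 8005 dimmest probe sets, used a trended and robust eBayes, required 2-fold, took only the compared arrays, changed the block or left out 1 cow. The 2-fold requirement is counted among the refits of members though it uses the main fit. For preparations compared at one time, leaving out a cow of the other time changes the pooled spread and not the difference. Named genes are the members, up to 4 genes with the smallest adjusted p per list and contrast, and the genes most like the members. The figure of partners shows genes named in an LH contrast. The members and lists were chosen with earlier results of these data known. Numbers were tabulated with pandas 2.3.3 and numpy 2.4.6 in Python 3.11.15, and figures drawn with matplotlib 3.10.9. No sequences are shown.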

Additional observations from a re-analysis of the deposited data

Results flagged for a closer look

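The LH effect on TAGLN differed between theca and antral granulosa by -2.01 ± 0.58 (limma adjusted p = 0.0437, 3 cows per group), by a test of the difference itself. In theca its LH effect was -0.51 ± 0.51, and in antral granulosa the fit gave 1.50 ± 0.51, from a group below 4.62 on all 3 arrays before LH. The call ended when any 1 of cows A, C, D, F or G was left out.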

How the results depend on the processing

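The 24 results of theca against granulosa were called in all 312 values under another setting or without 1 cow, which include the main fit under the 2-fold requirement. Other counts of called members changed. In theca after LH, 1 member became 0 under quantile normalization, with only the arrays compared and with the replicate block; in membrane granulosa, 0 became 1 with median centring, without the dimmest 8005 probe sets, with the replicate block and with cow as a random block. Replicate numbers pair no animals across LH, so that block is not a pairing of the design; arrays that shared only a number correlated at -0.17 to 0.23. Antral against membrane granulosa gave 3 in place of 2 before LH with median centring, without the dimmest 8005 probe sets and with eBayes trend, each time by MYH11, which was also called after LH with only the arrays compared. It gave 1 in place of 2 without the block before LH, and after LH under quantile normalization, eBayes with trend and without the block. The difference of LH effects, theca against antral granulosa, gave 2 in place of 1 without the dimmest 8005 probe sets and 0 with eBayes trend, with only the arrays compared and without the block. With each cow left out, the counts ran from 0 to 1 (LH in theca), 0 to 1 (membrane), 0 to 2 (antral), 1 to 3 and 0 to 2 (antral against membrane, before and after) and 0 to 2 (difference, theca against antral).

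Uncalled members changed sign. DES did so for the difference of theca against antral granulosa (0.0082 under quantile normalization, 0.125 without cow G, 0.0582 without A and 0.0106 without C), in theca after LH without D (-0.0294), and in antral against membrane granulosa before LH without D (0.0848) and G (0.0531). CNN1 did so in theca after LH without F (0.0315), G (0.175) and C (0.247), and in antral against membrane granulosa after LH without C (0.24). ACTA2 did so in membrane granulosa after LH without F (-0.47) and C (-0.69). The difference of theca against membrane granulosa without C turned for ACTA2 (0.41), MYH11 (0.20) and CNN1 (0.15). The cause was not tested. The planned use of each gene's dimmest probe set gave nothing to run, as each member has 1. Counts for 9 other gene lists were refitted in alternatives chosen after seeing the data, and a count printed for these lists that 1 cow moved by over 1.5 times has that value beside it. Partners lower in theca than in membrane granulosa before LH were 3 in place of 1 under quantile normalization and 2 with median centring. With median centring, 2 partners and 2 switch enzymes in place of 1 fell in membrane granulosa. Under quantile normalization 1 partner in place of 2 had a higher LH effect in theca than in antral granulosa, 2 endothelial markers in place of 1 rose in antral granulosa and 0 in place of 1 in theca, and 1 in place of 0 was lower in antral than in membrane granulosa after LH. Signals near 4.62 limit what ACTA2, TAGLN and CALD1 can show in granulosa.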
